A study of Mus musculus with 8 samples.

Results

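The immediate early genes described here were Fos, Fosb, Jun, Junb, Jund, Egr1, Atf3, Ier2, Nr4a1 and Myc, 10 genes of the 51826 gene identifiers in the deposited count table. They were chosen by symbol, with earlier results of these data known. Each is the row whose Ensembl identifier carries that symbol in the mouse GRCm38 annotation, and no measured value entered this matching. All 10 passed the filter on low counts, among 16623 genes tested. The libraries were labelled as cardiomyocytes from hearts of C57BL/6 mice. They came from KO adults, WT adults, KO embryos and WT embryos, the embryos at e13.5 (days of embryonic development), with 2 libraries in each of these 4 groups. KO stands for a null allele of LncSync, a long noncoding RNA, and WT for wild type. The labels gave no age in weeks for the adults, no sex, no method of cell isolation and no statement on pooled hearts or separate animals. The p-values therefore cover only how far these libraries differed, which may be technical.

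Immediate early genes are transcribed within minutes of a stimulus such as a growth factor, stretch or stress, from factors already present in the cell, and their RNAs are short-lived. Most encode transcription factors. Fos and Jun family proteins pair through leucine zippers as AP-1, Egr1 and Nr4a1 bind DNA through zinc fingers, and Myc drives growth and ribosome production together with its partner Max. In the heart they respond to load and to adrenergic signals, and in many tissues they are also induced while cells are being dissociated, so their level in isolated cells can reflect handling as well as the living tissue.

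Levels are given as CPM, counts scaled to an equal library total with TMM factors, with libraries 1 and 2 of a group in that order. Total counts ran from 16495084 to 20395600, and 3 counts corresponded to 0.103 to 0.206 CPM. The summed CPM of 12 cardiomyocyte markers was 83500 to 108000 in adults, against 14700 to 37800 at e13.5. Summed markers of fibroblasts, endothelium, smooth muscle and pericytes, leukocytes, red cells, epicardium and nerve were above 0 in every library, and 0 of the listed markers were at 0 throughout. Erythroid markers summed to 16.8 to 179 CPM in adults, against 19500 to 154000 CPM at e13.5. Mitochondrially encoded genes took 22.6% to 28.8% of counts in adults, against 3.21% to 4.36% at e13.5. Xist, transcribed from the inactive X chromosome of females, was at 0 to 0.464 CPM in adults, against 12.8 to 81.8 CPM at e13.5, so sex moved with age in these libraries. The age comparison therefore also compares libraries of different cell makeup, mitochondrial share and sex, and their part in the results below was not tested. In bulk RNA, fewer cells of a type and less RNA per cell cannot be told apart.

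Adult libraries held less RNA of Fos, Atf3, Nr4a1 and Myc than e13.5 libraries in both genotypes, and more of Jund. In KO, Fos, Jun, Atf3, Nr4a1 and Myc fell and Jund rose in adults. In WT, Fos, Atf3, Nr4a1 and Myc fell and Jund rose. Fosb, Junb, Egr1 and Ier2 passed the test in neither genotype, nor did Jun in WT. The call was an adjusted p below 0.05 from edgeR's quasi-likelihood test over all 16623 genes. By that rule 5 of 10 members fell in KO, where 20.9% of all tested genes fell, and 1 rose, where 20.5% of all genes rose; in either direction 41.4% of all genes were called. In WT, 4 of 10 fell, where 21.1% of all genes fell, and 1 rose, where 17.8% rose; in either direction 38.9% of all genes were called. The median log2 fold change of the members was -1.81 in KO and -1.57 in WT, beside -0.15 in KO and -0.26 in WT over all tested genes. The KO and WT age comparisons rest on different libraries, although the fit shares 1 estimate of the spread.

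**Figure D1:**
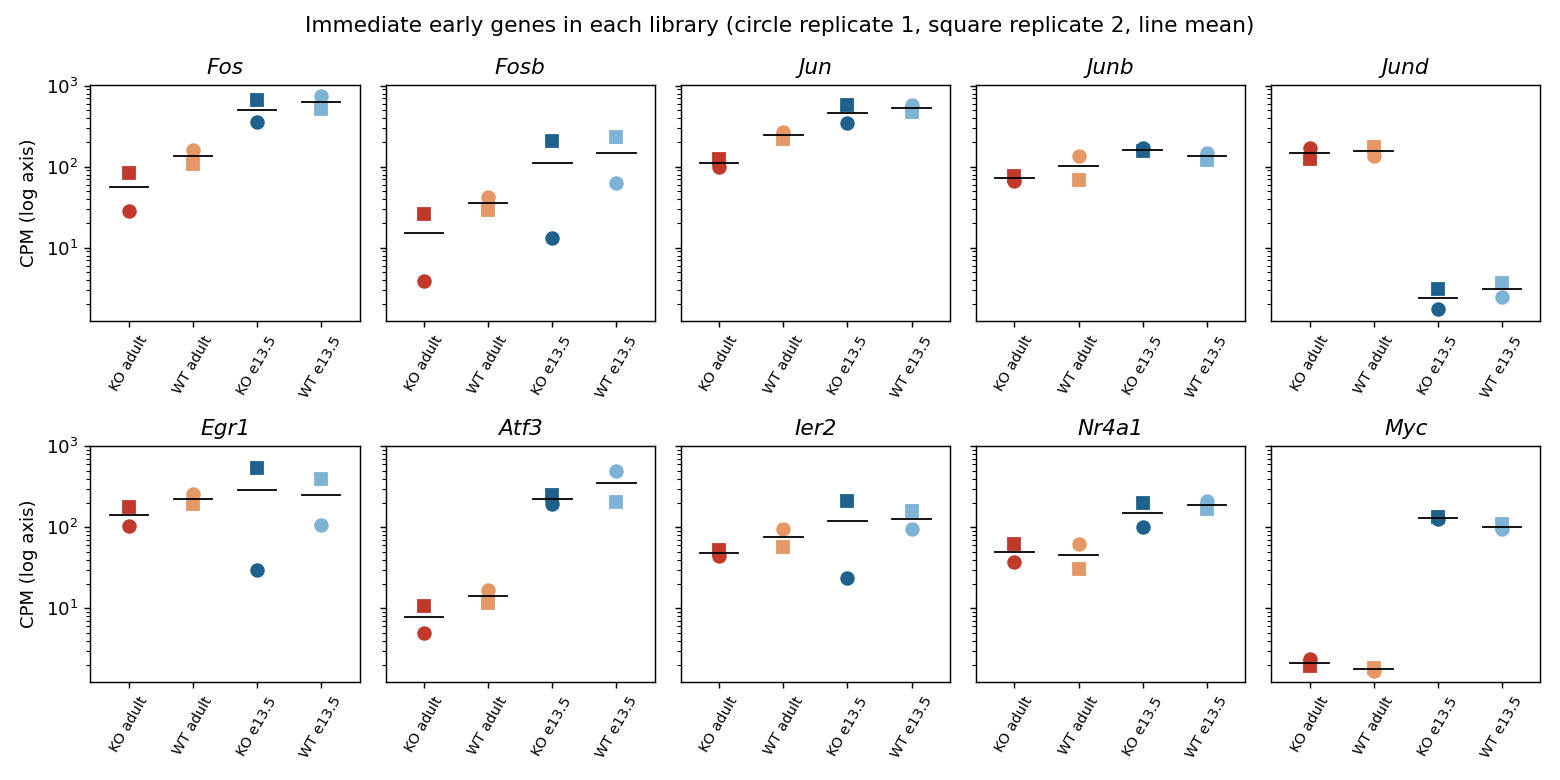
CPM of each of the 10 genes (log axis) in each of the 8 libraries, with 1 point per library and groups running from KO adult and WT adult to KO e13.5 and WT e13.5. Jund sits at 124 to 176 CPM in adults and at 1.75 to 3.68 CPM at e13.5, while Myc sits at 1.69 to 2.37 CPM in adults and at 95.3 to 134 CPM at e13.5.

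Fos encodes the founding Fos family partner of AP-1. It had 28.0 and 84.0 CPM in KO adults and 161 and 109 CPM in WT adults, against 352 and 664 CPM in KO e13.5 and 753 and 517 CPM in WT e13.5. Every adult library was below every e13.5 library. The log2 fold change, adult over e13.5, was -3.18 ± 0.64 in KO (standard error, adjusted p = 0.00423) and -2.23 ± 0.62 in WT (adjusted p = 0.0186). The WT call was lost without WT e13.5 replicate 1 (adjusted p = 0.0701), without WT adult replicate 1 (0.0819) and without WT adult replicate 2 (0.154), and held in the other 13 of 16 alternatives. The KO call held in all 16.

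Atf3 encodes a bZIP factor induced by stress that pairs with Jun proteins or with itself. It had 5.0 and 10.7 CPM in KO adults and 16.8 and 11.8 CPM in WT adults, against 196 and 254 CPM in KO e13.5 and 500 and 206 CPM in WT e13.5. The ages did not overlap in either genotype. The log2 fold change was -4.84 ± 0.65 in KO (adjusted p = 0.000606) and -4.63 ± 0.64 in WT (adjusted p = 0.000744), and the call held in each of 16 alternatives in both genotypes.

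Nr4a1 encodes an orphan nuclear receptor, also called Nur77. It had 37.9 and 62.8 CPM in KO adults and 61.7 and 30.4 CPM in WT adults, against 101 and 200 CPM in KO e13.5 and 211 and 169 CPM in WT e13.5. Here too the ages did not overlap, with a narrower gap than for Atf3. The log2 fold change was -1.58 ± 0.53 in KO (adjusted p = 0.0383) and -2.05 ± 0.54 in WT (adjusted p = 0.0156). The KO call was lost without KO adult replicate 1 (adjusted p = 0.207), KO adult replicate 2 (0.0874), KO e13.5 replicate 2 (0.18), WT adult replicate 1 (0.0589) or WT adult replicate 2 (0.0605). The WT call was lost without WT adult replicate 2 (adjusted p = 0.168) or WT e13.5 replicate 1 (0.0501).

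The promoters of these 3 genes are shown because they were the members called lower in adults of both genotypes for which a RefSeq promoter was at hand. Each window runs from 250 bases before to 50 bases after the RefSeq start of GRCm38.p6, 5′ to 3′ on the strand of the gene. Capitals mark the CRE core, the 5 letters TGACG or their reverse complement CGTCA, which CREB and ATF proteins can bind. The windows are chr12:85473640-85473939 on the plus strand for Fos, chr1:191183284-191183583 on the minus strand for Atf3 and chr15:101266596-101266895 on the plus strand for Nr4a1.
Fos: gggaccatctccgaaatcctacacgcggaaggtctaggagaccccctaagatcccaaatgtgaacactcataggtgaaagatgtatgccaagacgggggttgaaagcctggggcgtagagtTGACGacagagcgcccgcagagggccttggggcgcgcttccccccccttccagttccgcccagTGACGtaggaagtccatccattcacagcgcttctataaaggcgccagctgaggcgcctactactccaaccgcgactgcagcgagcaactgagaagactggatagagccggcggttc
Atf3: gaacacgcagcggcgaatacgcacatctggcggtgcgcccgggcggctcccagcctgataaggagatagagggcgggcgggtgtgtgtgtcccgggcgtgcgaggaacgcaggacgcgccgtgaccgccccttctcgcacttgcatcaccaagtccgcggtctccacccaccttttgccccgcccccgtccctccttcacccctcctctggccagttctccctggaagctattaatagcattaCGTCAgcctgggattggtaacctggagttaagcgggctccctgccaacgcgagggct
Nr4a1: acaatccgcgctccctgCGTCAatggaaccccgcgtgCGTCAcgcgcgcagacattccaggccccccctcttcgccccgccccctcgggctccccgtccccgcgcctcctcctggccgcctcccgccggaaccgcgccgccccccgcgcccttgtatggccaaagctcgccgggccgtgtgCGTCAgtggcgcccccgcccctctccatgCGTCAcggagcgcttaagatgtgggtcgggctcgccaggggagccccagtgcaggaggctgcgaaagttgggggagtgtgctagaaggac
The Fos window holds the CRE core 129 and 66 bases before the start, the Atf3 window 7 bases before it, and the Nr4a1 window at 4 places, 233, 213, 69 and 40 bases before it. RefSeq windows were at hand for 7 members, and 5 of these held a CRE core, Fosb and Junb included. Of 32851 mouse promoters of the same length, 20.8% held it. The median GC content of all promoters was 52.7%. The windows with a core had 58.7% (Fos), 68.3% (Fosb), 65.3% (Junb), 64.7% (Atf3) and 72.3% (Nr4a1). The Jun window, also above that median, and the Jund window, at 46.7%, held none. The 20.8% was not matched for GC content, whose part in these matches was not tested. The TATA box TATAAA, 33 bases before the start in Fos, was in the windows of Fos and Junb and in 13.6% of all promoters. The full CRE TGACGTCA (1.79% of all promoters, and it contains the CRE core), the AP-1 site TGACTCA or TGAGTCA (5.2%) and the CArG box bound by SRF (1.63%) were found in none of the 7 windows, on either strand. A match is a description of letters, not a bound site. The windows reach only 250 bases before the start, so sites further out could not be seen. Egr1, Ier2 and Myc had no window. The Jund window, chr8:70697489-70697788, ends before the annotated Jund start at 70698949.

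Myc showed the deepest fall of the 10 genes in both genotypes. It had 2.37 and 1.92 CPM in KO adults and 1.69 and 1.86 CPM in WT adults, against 128 and 134 CPM in KO e13.5 and 95.3 and 109 CPM in WT e13.5. The adult values rest on 27 to 36 counts per library. The log2 fold change was -5.93 ± 0.47 in KO (adjusted p = 0.000162) and -5.85 ± 0.47 in WT (adjusted p = 0.0002), and it was called in all 16 alternatives in both genotypes. Of 12 other genes of the MYC network, 3 rose and 3 fell in adults in each genotype, near the shares of all genes that rose (20.5% in KO and 17.8% in WT) and fell (20.9% in KO and 21.1% in WT). Mycn, the paralog used in the embryo, fell to 8.02 ± 2.44 CPM in KO adults, against 75.9 ± 30.8 CPM in KO e13.5, and to 2.30 ± 0.619 CPM in WT adults, against 60.4 ± 22.9 CPM in WT e13.5 (mean ± SD, n = 2 each). Mxd4, which competes with Myc for Max, rose by 3.43 ± 0.53 in KO and 3.54 ± 0.54 in WT on the log2 scale, while Mxd3 of the same family fell by 4.41 ± 0.68 in KO and 3.84 ± 0.66 in WT. The list of MYC target genes held 16, among them genes of ribosome and nucleotide synthesis. Of these 16, 9 fell and 1 rose in KO, and 7 fell and 1 rose in WT. The gene that rose was Odc1, by 2.72 ± 0.44 in KO and 2.32 ± 0.43 in WT on the log2 scale. Npm1, a ribosome assembly chaperone, fell by 3.10 ± 0.44 in KO and 2.82 ± 0.43 in WT on the log2 scale, Nop58, of the nucleolar methylation complex, fell by 3.17 ± 0.47 in KO and 3.33 ± 0.47 in WT, and Cdk4, a cell cycle kinase, fell by 3.67 ± 0.54 in KO and 3.61 ± 0.54 in WT.

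Jun encodes the main Jun partner of Fos. It had 98.6 and 126 CPM in KO adults and 270 and 219 CPM in WT adults, against 342 and 584 CPM in KO e13.5 and 584 and 474 CPM in WT e13.5. The ages did not overlap, and WT adults lay between KO adults and the embryos. The log2 fold change was -2.05 ± 0.46 in KO (adjusted p = 0.00731) and missed the threshold at -1.12 ± 0.45 in WT (adjusted p = 0.0745). The WT value passed with the replicate number as a block (adjusted p = 0.0462), with that block nested in age (0.0222) and with DESeq2 in place of edgeR (0.0474). The KO call was lost without KO adult replicate 1, where the log2 fold change was -1.87. Junb, which often restrains Jun, had 67.3 and 77.5 CPM in KO adults and 134 and 68.4 CPM in WT adults, against 170 and 154 CPM in KO e13.5 and 147 and 121 CPM in WT e13.5. Its log2 fold change was -1.16 ± 0.45 in KO (adjusted p = 0.0595) and -0.41 ± 0.44 in WT (adjusted p = 0.484). The KO value passed in 4 of 16 alternatives. These were the replicate block (adjusted p = 0.0344), that block nested in age (0.0178), DESeq2 (0.0269) and a filter of 5 CPM in 2 libraries (0.0412). Junb shares 173 exon bases with Prdx2 on the opposite strand, an antioxidant gene at 243 to 382 CPM in adults and 354 to 1190 CPM at e13.5, and whether strand was used in counting is not given in the sources used here.

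Jund, the Jun family member with the steadiest expression in many cell types, was the one gene of the 10 that rose in adults. It had 169 and 124 CPM in KO adults and 135 and 176 CPM in WT adults, against 1.75 and 3.08 CPM in KO e13.5 and 2.44 and 3.68 CPM in WT e13.5. In counts this is 1867 to 2574 per adult library, against 28 to 107 per e13.5 library. The log2 fold change was 5.91 ± 0.56 in KO (adjusted p = 0.000193) and 5.66 ± 0.55 in WT (adjusted p = 0.000252), the 374th and the 332nd highest of 16623 genes, and it was called in all 16 alternatives. Within the Jun family, on the scale of CPM per kilobase of exon, Jund made up 62.8% and 50.3% of the 3 genes in KO adults and 36.3% and 51.8% in WT adults, against 0.576% and 0.733% in KO e13.5 and 0.589% and 1.08% in WT e13.5. At e13.5 the family was mostly Jun, at 58.8% and 72.6% in KO and 73.8% and 73.0% in WT.

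**Figure D2:**
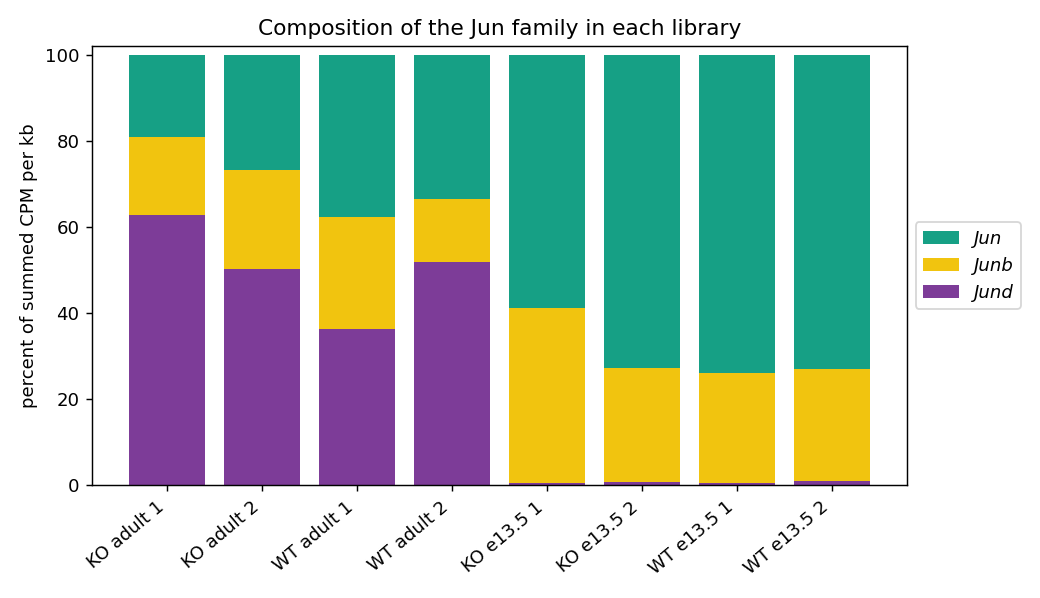
Share of Jun, Junb and Jund in the summed CPM per kilobase of exon of the 3 genes, in percent, as 1 stacked bar per library, adult libraries left of e13.5 libraries. Jund takes 36.3% to 62.8% of the bar in adults and at most 1.08% at e13.5.

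GC content moved with this rise. Jund is a single exon with 67.1% GC, the highest of the 10 members, and is annotated on the plus strand of chromosome 8 at 70698949 to 70700616. The 65 tested genes with at least 65% GC had a median log2 fold change, adult over e13.5, of 2.53 in KO and 2.82 in WT, and 12 of them in KO and 13 in WT were at or above the value of Jund. The 4376 genes with 50% to 55% GC had a median of -0.13 in KO and -0.30 in WT. Cebpb, a bZIP factor of the interleukin response with 1 exon and 67.2% GC, had 32.1 and 26.4 CPM in KO adults and 70.9 and 131 CPM in WT adults, against 1 count in both KO e13.5 libraries together and 0 counts in both WT e13.5 libraries, so it was at least 1670-fold higher in WT adults (floor of 3 counts over the group). The part of GC content in the values of Jund and Cebpb, and in the Jun family shares, was not tested. Gm11175, annotated antisense to Jund over 877 exon bases, was at 0 to 1.86 CPM in adults and at 0 CPM at e13.5.

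**Figure D3:**
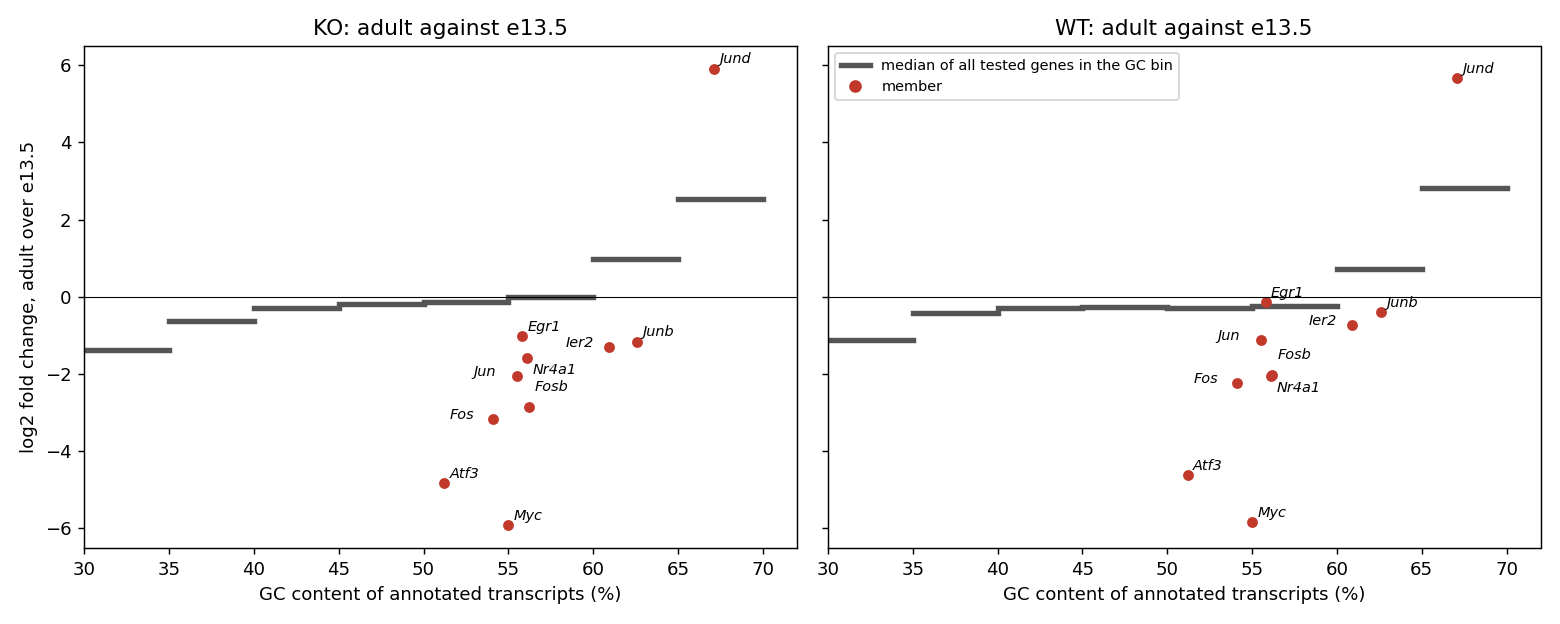
Log2 fold change, adult over e13.5, against GC content of the annotated transcripts in percent, for KO (left) and WT (right); points are the 10 genes and bars the median of all tested genes in each GC bin, the outer bins holding all genes below 35% or from 65% up. Jund stands at 67.1% GC, in the bin whose median is 2.53 in KO and 2.82 in WT, and the other members lie between 51.2% and 62.6%.

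Fosb, Egr1 and Ier2 differed widely between the 2 libraries of KO e13.5, more than nearly all other genes. Fosb, a Fos family member with a short splice form linked to lasting stimulation, had 3.88 and 26.2 CPM in KO adults and 42.2 and 29.2 CPM in WT adults, against 13.2 and 206 CPM in KO e13.5 and 62.2 and 230 CPM in WT e13.5. Egr1, a zinc finger factor downstream of SRF and ERK signalling, had 105 and 177 CPM in KO adults and 260 and 192 CPM in WT adults, against 29.4 and 546 CPM in KO e13.5 and 106 and 394 CPM in WT e13.5. Ier2, a nuclear early response protein, had 44.5 and 52.5 CPM in KO adults and 95.3 and 57.1 CPM in WT adults, against 23.5 and 214 CPM in KO e13.5 and 94.7 and 159 CPM in WT e13.5. In all 3 genes the second e13.5 library was above the first in both genotypes, and in KO the adult values lay between the pair of e13.5 values for Egr1 and Ier2. In KO e13.5 the ratio of library 2 to library 1, with 0.1 CPM added to each, was 18.6 for Egr1, 15.5 for Fosb and 9.08 for Ier2, and 0.197%, 0.311% and 1.1% of 9648 genes differed at least as far. In WT e13.5 the ratios were 3.71, 3.69 and 1.68, and 11.5%, 11.6% and 53.4% of 10059 genes differed at least as far. Dusp1, a phosphatase that ends MAP kinase signalling, followed the same order at 13.4 and 178 CPM in KO e13.5 and 47.3 and 125 CPM in WT e13.5 (chosen after its values were seen), whereas Myc, Junb and Jund differed by at most 1.76-fold between libraries of an e13.5 group.

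The e13.5 libraries numbered 2 also held more fibroblast marker RNA and less erythroid, cardiomyocyte and smooth muscle marker RNA. The summed CPM of 9 fibroblast markers was 425 and 3660 in KO e13.5 and 896 and 3710 in WT e13.5, and that of 8 erythroid markers was 154000 and 22200 in KO e13.5 and 42100 and 19500 in WT e13.5. That of 12 cardiomyocyte markers was 37800 and 14700 in KO e13.5 and 31600 and 25200 in WT e13.5, and that of 8 smooth muscle and pericyte markers 2720 and 1390 in KO e13.5 and 2400 and 1350 in WT e13.5. Their part in the levels of Egr1, Fosb and Ier2 was not tested. With that spread, the log2 fold change between ages was -2.86 ± 1.22 in KO (adjusted p = 0.0837) and -2.03 ± 1.18 in WT (0.193) for Fosb, -1.03 ± 1.04 in KO (0.439) and -0.15 ± 1.03 in WT (0.924) for Egr1, and -1.29 ± 0.81 in KO (0.218) and -0.74 ± 0.80 in WT (0.488) for Ier2. With the replicate number as a block, Fosb passed in KO at -2.61 (adjusted p = 0.0346), and Egr1 in WT turned to 0.43 (0.711). Without KO e13.5 replicate 2 the KO value of Egr1 turned to 2.26 (adjusted p = 0.0489), that of Fosb to 0.19 (0.896) and that of Ier2 to 1.04 (0.179). Without KO e13.5 replicate 1, Fosb at -3.76 (adjusted p = 0.0149) and Ier2 at -2.12 (0.0159) passed the threshold in KO. In KO the direction of these 3 genes between ages thus rested on KO e13.5 replicate 2. In WT, Fosb and Ier2 kept their direction in all 16 alternatives, with log2 values of -2.55 to -0.78 for Fosb and -1.15 to -0.30 for Ier2. Fosb passed in WT with no filter on low counts (adjusted p = 0.00408) and with only 4 libraries (0.0398). Without WT adult replicate 2 or WT e13.5 replicate 1, 3 members passed in WT in place of 5.

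**Figure D4:**
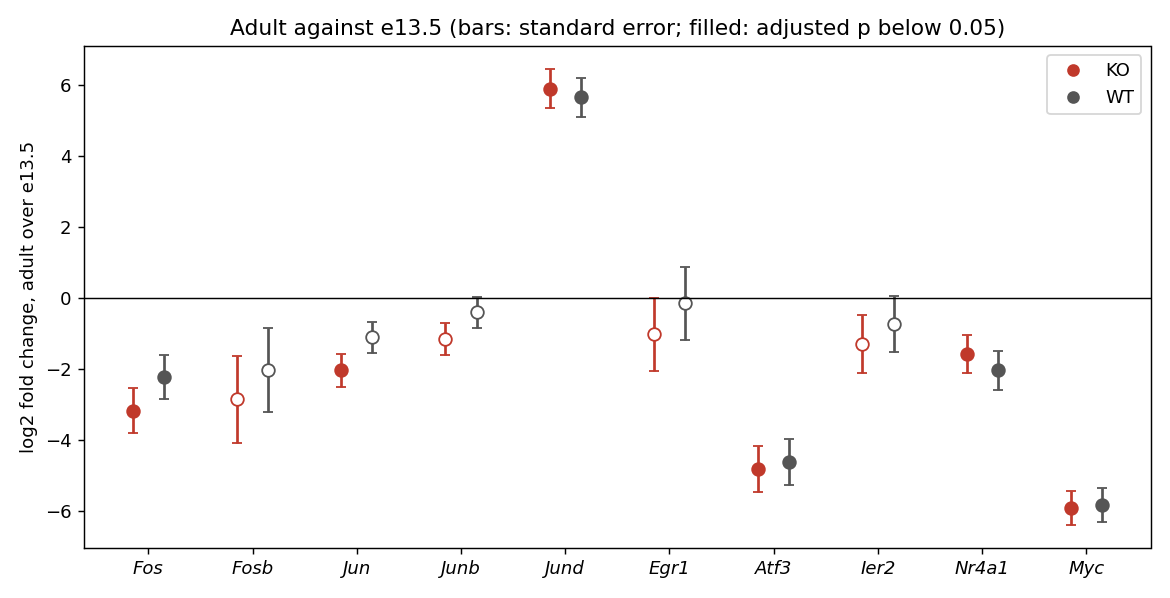
Log2 fold change, adult over e13.5, of the 10 genes in KO and in WT, with bars of 1 standard error; filled points have an adjusted p below 0.05. Jund lies near 5.91 in KO and 5.66 in WT, Myc and Atf3 lie below -4.6 in both, and the bars of Fosb, Egr1 and Ier2 are the widest.

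Levels of different genes were set side by side as CPM per kilobase, which corrects for length but not for GC content. Jund, with 67.1% GC, was the highest of the 10 in adults, at 87.9 ± 19.4 in KO and 93.4 ± 17.3 in WT (mean ± SD, n = 2). Jun followed at 35.2 ± 6.05 in KO and 76.6 ± 11.4 in WT. The part of GC content in the ranks of Jund was not tested. The gap between Jund and Jun exceeded the SD in KO but was within 1 SD of Jund in WT, where the neighbours did not separate. At e13.5 Fos was the highest, at 216 ± 93.8 in KO and 270 ± 71.0 in WT, followed by Jun at 145 ± 53.8 in KO and 166 ± 24.4 in WT and Atf3 at 104 ± 19.0 in KO and 164 ± 96.5 in WT. Fos and Jun did not separate beyond their spread in KO e13.5, nor did Jun and Atf3 in either genotype at e13.5. In KO adults Jun was within 1 SD of Ier2 at 31.9, Junb at 31.5 and Egr1 at 31.4. Jund was the lowest at e13.5, at 1.45 ± 0.566 in KO and 1.84 ± 0.526 in WT, and Myc the lowest in adults, at 0.79 ± 0.117 in KO and 0.652 ± 0.0446 in WT.

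The counts of called genes in the other lists stand beside the shares of all tested genes, of which 20.5% rose and 20.9% fell in KO adults and 17.8% rose and 21.1% fell in WT adults. Of 45 other early response genes in the table, 17 fell and 12 rose in KO adults, and 19 fell and 10 rose in WT adults, with a median log2 fold change of -1.07 in KO and -1.47 in WT. Id2, an inhibitor of basic helix-loop-helix factors, fell to 5.31 ± 4.04 CPM in KO adults, against 242 ± 54.9 CPM in KO e13.5, and to 3.51 ± 0.876 CPM in WT adults, against 168 ± 24.8 CPM in WT e13.5. Gadd45g and Gadd45b, of the growth arrest and stress family, fell in both genotypes. Their log2 fold changes were -4.42 ± 0.51 and -4.17 ± 0.50 in KO, and -2.69 ± 0.47 and -3.31 ± 0.48 in WT. Klf2, a Kruppel-like factor known from endothelium, rose to 57.8 ± 12.1 CPM in KO adults, against 1.95 ± 0.0712 CPM in KO e13.5, and to 92.6 ± 24.4 CPM in WT adults, against 4.77 ± 1.0 CPM in WT e13.5. The summed CPM of 8 endothelial markers was 1800 and 912 in KO adults and 1000 and 764 in WT adults, against 670 and 537 in KO e13.5 and 484 and 684 in WT e13.5. Klf2 has 61.6% GC, and of 547 tested genes with 60% to 65% GC, 35.6% rose in KO and 33.3% in WT. The part of endothelial cells and of GC content in the rise of Klf2 was not tested. Ier5 rose by 3.57 ± 0.47 in KO and 4.37 ± 0.48 in WT on the log2 scale. Plk2, a stress-responsive polo kinase, fell, with log2 fold changes of -3.51 ± 0.49 in KO and -3.77 ± 0.49 in WT.

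Of 16 other AP-1 and bZIP partner genes, 7 rose and 2 fell in KO adults, and 4 rose and 5 fell in WT adults. Jdp2, a repressor that dimerises with Jun proteins, rose to 5.81 ± 0.442 CPM in KO adults, against 0.326 ± 0.0693 CPM in KO e13.5, and to 9.59 ± 3.05 CPM in WT adults, against 0.333 ± 0.0154 CPM in WT e13.5. Atf4, the effector of the integrated stress response, fell by 2.30 ± 0.46 in KO and 2.04 ± 0.45 in WT on the log2 scale. Of 19 feedback inhibitors, 4 rose and 4 fell in KO, and 3 rose and 5 fell in WT, close to the shares of all genes. The MAP kinase phosphatases Dusp6 and Dusp10 fell, with log2 fold changes of -2.11 ± 0.46 in KO and -2.95 ± 0.47 in WT for Dusp6 and of -2.79 ± 0.55 in KO and -3.62 ± 0.57 in WT for Dusp10. Zfp36l2, which promotes decay of AU-rich mRNAs, rose by 3.52 ± 0.72 in KO and 2.62 ± 0.69 in WT on the log2 scale.

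Of 25 upstream kinases and factors, 8 rose and 2 fell in KO adults, where 20.5% of all genes rose and 20.9% fell, and 6 rose and 2 fell in WT adults, where 17.8% of all genes rose and 21.1% fell. Srf, the factor that binds CArG boxes in early gene and muscle gene promoters, rose to 145 ± 28.4 CPM in KO adults, against 10.8 ± 3.84 CPM in KO e13.5, and to 113 ± 13.6 CPM in WT adults, against 11.9 ± 3.57 CPM in WT e13.5. Mapk14, the p38 alpha kinase, rose by 4.17 ± 0.46 in KO and 3.92 ± 0.45 in WT on the log2 scale, and Rps6ka2, a ribosomal S6 kinase downstream of ERK, rose by 3.24 ± 0.50 in KO and 2.12 ± 0.48 in WT. Mapk7 and Crem fell, with log2 fold changes of -1.64 ± 0.44 in KO and -2.05 ± 0.45 in WT for Mapk7. Those of Crem were -1.45 ± 0.46 in KO and -1.66 ± 0.46 in WT. So the RNA of Srf and Mapk14 was higher, and that of Mapk7 and Crem lower, in adults, in which Fos and Atf3 were lower. Srf has 62.5% GC, and of 547 tested genes with 60% to 65% GC, 35.6% rose in KO and 33.3% in WT. The part of GC content in the rise of Srf was not tested. Of 26 stress genes known to rise during cell dissociation, some of which stand in the other lists too, 8 fell and 4 rose in KO adults, and 7 fell and 4 rose in WT adults, with a median of -0.81 in KO and -0.63 in WT. Ppp1r15a, a phosphatase subunit of the stress response, fell by 3.81 ± 0.48 in KO and 3.62 ± 0.47 in WT on the log2 scale. Among the genes of this list that rose in both genotypes were Cebpb, Mt1 and Mt2. Mt1 had log2 fold changes of 1.90 ± 0.47 in KO and 2.25 ± 0.47 in WT. Hspa1a, the inducible heat shock protein 70, had 6.71 and 31.2 CPM in KO adults and 190 and 21.0 CPM in WT adults, against 1070 and 335 CPM in KO e13.5 and 777 and 293 CPM in WT e13.5, and passed in KO (adjusted p = 0.00873) but not in WT (0.109). Its paralog Hspa1b had 5.86 and 18.9 CPM in KO adults and 216 and 24.4 CPM in WT adults, against 15.2 and 8.14 CPM in KO e13.5 and 6.68 and 5.5 CPM in WT e13.5, and rose in WT (log2 fold change 4.30, adjusted p = 0.00849). Both were chosen after their values were seen, and reads of such close paralogs can be split between them.

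Between genotypes, no member passed the test in adults, at e13.5, averaged over both ages or for the interaction of genotype with age. In adults, 8 of 10 log2 fold changes, KO over WT, were negative, with a median of -0.67 beside 0.01 over all tested genes. Both KO adult libraries were below both WT adult libraries for 6 members, Fos, Fosb, Jun, Egr1, Atf3 and Ier2, where 14.5% of all tested genes showed such a gap. Myc had the opposite gap, so 7 of 10 did not overlap in either direction, where 27.9% of all genes did not. With 2 libraries against 2 and all adjusted p at 1, these are differences in level that did not pass the test, and 0.0481% of all genes were called in this comparison. The unadjusted p was below 0.05 for 1 member, Jun, at 0.0325. DESeq2 also called 0 members in this comparison.

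In adults Jun averaged 112 ± 19.3 CPM in KO and 244 ± 36.3 CPM in WT (SD, n = 2 each), with a log2 fold change of -1.12 ± 0.45. Fos averaged 56.0 ± 39.6 CPM in KO and 135 ± 36.4 CPM in WT, with a log2 fold change of -1.27 ± 0.60. KO adult replicate 1 was the lowest of the 4 adult libraries for Fos, Fosb, Jun, Junb, Egr1, Atf3 and Ier2, and WT adult replicate 1 was the highest for Fos, Fosb, Jun, Junb, Egr1, Atf3 and Ier2. Adult replicates 2 lay close together, KO and WT, for Fosb (26.2 and 29.2 CPM), Egr1 (177 and 192), Atf3 (10.7 and 11.8) and Ier2 (52.5 and 57.1). They lay further apart for Fos (84.0 and 109) and Jun (126 and 219). Nr4a1 averaged 50.3 ± 17.6 CPM in KO and 46.0 ± 22.1 CPM in WT, and Jund 147 ± 32.4 CPM in KO and 156 ± 28.9 CPM in WT, so both overlapped. Myc averaged 2.15 ± 0.318 CPM in KO adults and 1.77 ± 0.121 CPM in WT adults, with a log2 fold change of 0.28 ± 0.41. In KO adult replicate 1 the summed CPM of endothelial markers was 1800 and of macrophage and leukocyte markers 447, the highest of the 4 adult libraries, and that of cardiomyocyte markers 83500, the lowest. Their part in the lower values of that library was not tested.

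**Figure D5:**
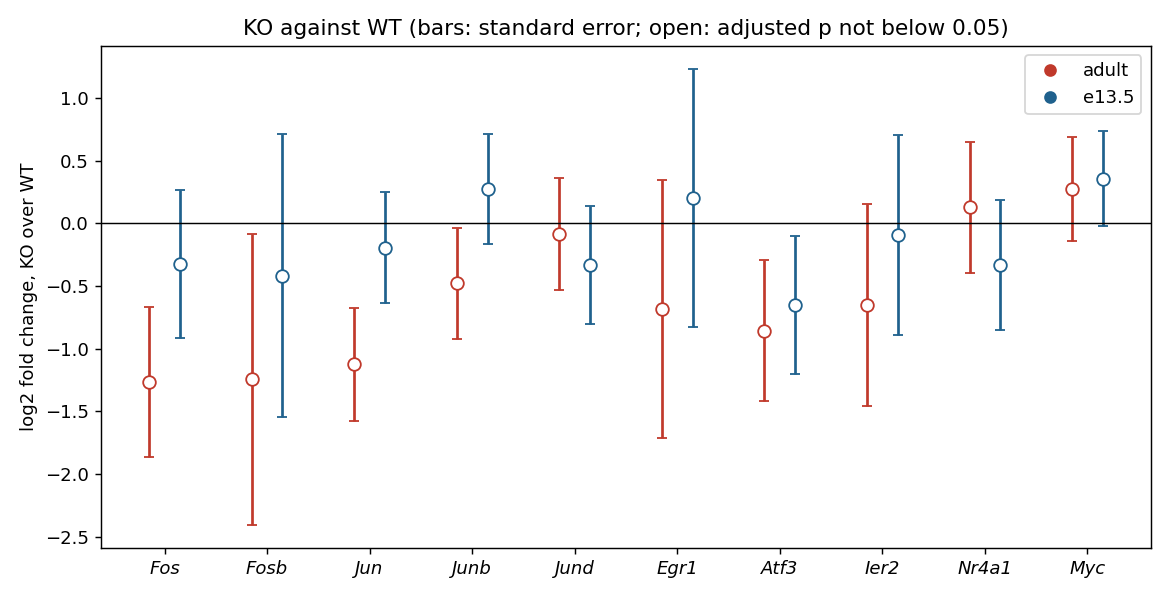
Log2 fold change, KO over WT, of the 10 genes in adults and at e13.5, with bars of 1 standard error; open points did not pass an adjusted p of 0.05. All points are open, and in adults 8 of 10 lie below 0, from -1.27 for Fos to 0.28 for Myc.

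At e13.5, 7 of 10 log2 fold changes, KO over WT, were negative and 3 positive, with a median of -0.26 beside -0.07 over all genes, and they ran from -0.65 ± 0.55 for Atf3 to 0.36 ± 0.38 for Myc. Both KO libraries were below both WT libraries for 0 members, where 8.63% of all genes showed such a gap, and above them for Junb and Myc, so 2 of 10 did not overlap in either direction, where 15.4% of all genes did not. Myc had 128 and 134 CPM in KO e13.5 and 95.3 and 109 CPM in WT e13.5, and Junb had 170 and 154 CPM in KO e13.5 and 147 and 121 CPM in WT e13.5. Here 0 members had an unadjusted p below 0.05, DESeq2 called 0, and 0.0722% of all genes were called. Averaged over both ages, 9 of 10 were negative, 0 had an unadjusted p below 0.05 and 0.12% of all genes were called. Across ages, 0 of 10 members and 0.0% of all genes passed the test of the interaction, with 0 members below an unadjusted p of 0.05, and the values ran from -0.95 ± 0.84 for Fos to 0.46 ± 0.74 for Nr4a1. A larger fall of Fos or Jun with age in KO than in WT was therefore not shown.

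The other lists gave 0 calls between genotypes too, at either age. In adults, 20 of 26 stress genes had a negative log2 fold change, KO over WT, with a median of -0.27, and 9 were lower and 0 higher without overlap, where 14.5% of all genes were lower and 27.9% did not overlap in either direction. Of 45 other early response genes, 30 were negative, with 16 lower and 4 higher without overlap. Of 19 feedback inhibitors, 15 were positive, with 2 lower and 5 higher without overlap. Of all tested genes, 46.3% had a negative log2 fold change in this comparison. Hspa1b, at 5.86 and 18.9 CPM in KO adults, against 216 and 24.4 CPM in WT adults, owed most of its difference to 1 library, WT adult replicate 1. Cebpb averaged 29.2 ± 4.03 CPM in KO adults and 101 ± 42.7 CPM in WT adults, and Ier5 32.8 ± 2.05 CPM in KO adults and 86.5 ± 28.9 CPM in WT adults. Mycn lay the other way, at 8.02 ± 2.44 CPM in KO adults and 2.30 ± 0.619 CPM in WT adults. These 4 genes were chosen after their values were seen, and none passed the test between genotypes (adjusted p = 1).

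Once each gene was centred on its mean within each age, the members rose and dipped from library to library to different degrees with the mean of the other 9. Over the 8 libraries, Pearson's r with that mean was 0.928 for Fosb, 0.891 for Ier2, 0.833 for Egr1, 0.781 for Jun, 0.748 for Fos, 0.639 for Nr4a1, 0.512 for Atf3, 0.437 for Jund, 0.183 for Junb and -0.506 for Myc. The mean of the members was lowest in KO e13.5 replicate 1 and KO adult replicate 1, at -0.95 and -0.68, and highest in WT adult replicate 1 and KO e13.5 replicate 2, both at 0.56 on the log2 scale. In all 10755 genes were compared, the members among them. Outside the members, and leaving out genes without a proper name (such as Gm numbers and Rik names), 8 genes were listed as closest to this mean. They were Itfg1 with r = 0.964, Rnf150 with 0.958, Runx1t1 and Spata5 with 0.953 each, Rbm15 with 0.951, Epb41l4a with 0.949, Ogn with 0.945 and Rps12 with 0.939. These r share the same 8 libraries, their depth and their cell makeup, and are given as a description.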

How the data were processed

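RNA of 8 libraries was analysed, from LncSync KO and WT cardiomyocytes, adult and e13.5, 2 per group. Per the labels' protocols, 200 ng of total RNA was amplified with Smart-seq2 and libraries were prepared with a SMARTer kit. In the deposited table are expected counts per gene, made by the authors with RSEM on mm10 per the submitters' processing notes; the sources used here give no version, aligner, annotation or strand setting. The values are whole numbers with differing totals and were read as counts, although the table's name speaks of normalised input. Rounding changed nothing.

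From these, genes passing filterByExpr were fitted in edgeR 4.0.16 (R 4.3.3, limma 3.58.1) with TMM factors, 4 group means, 4 residual degrees of freedom and the quasi-likelihood test, two-sided, Benjamini-Hochberg adjusted over 16623 genes, and tested on simulated data. The median biological coefficient of variation was 0.428. Alternatives were no filter, 5 CPM in 2 libraries, DESeq2 1.42.0, median of ratios scaling, abundant RNA left out, only 4 libraries, a replicate block, plain or nested in age, and each library left out. Positions, lengths, GC and exon overlaps with genes on the opposite strand come from GENCODE vM21 on GRCm38, and promoters from RefSeq. Near-identical copies (at least 95% over at least 100 bases) were searched with BLAST 2.17.0. Counting floors cover counting error only.

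All 10 members were named, and from each other list up to 4 called genes by smallest p per comparison; a few of these are left to the counts. The members and lists were chosen with earlier results of these data known. Deviations of same-numbered KO and WT libraries from their group means correlated with r = 0.552 at e13.5 and 0.307 in adults. In adults, Alb was at 56.2 CPM in KO replicate 2 and 38.8 CPM in WT replicate 2, and at 0 CPM in replicate 1 of both. The labels state no shared litter or day, so whether the numbers mark pairs is not known.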

Additional observations from a re-analysis of the deposited data

How the results depend on the processing

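Between KO and WT, 0 members passed under each alternative that could be fitted, at either age, averaged and for the interaction. Between ages, the 16 alternatives called 4 to 8 members in KO, beside 6 as reported, and 3 to 6 in WT, beside 5; leaving out 1 library at a time gave 3 to 5 in WT. Jund, Atf3 and Myc were called in both genotypes under all 16. With the replicate block, Fosb, at -2.61 (adjusted p = 0.0346), and Junb, at -1.15 (0.0344), were added to the members called in KO and Jun, at -1.11 (0.0462), to those called in WT, and the block changed no other call of a member. It turned the direction of Egr1 between KO and WT at e13.5 (-0.148, or -0.678 nested in age) and between ages in WT (0.427, or 0.0492 nested). Nested in age it also turned Egr1 between ages in KO (0.0141) and Ier2 in the interaction (0.166). Of 480 log2 fold changes with 1 library left out, 422 kept direction and side of the threshold, 11 lost the call, 4 gained it and 43 changed direction.

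Leaving out 1 library at a time, the following log2 fold changes crossed 0. KO over WT at e13.5 ran from -0.843 to 0.105 for Fos, -3.46 to 0.802 for Fosb, -0.622 to 0.134 for Jun, -0.797 to 0.0153 for Jund, -3.08 to 1.43 for Egr1, -1.13 to 0.268 for Atf3, -2.42 to 0.749 for Ier2 and -0.897 to 0.0652 for Nr4a1. In adults it ran from -0.893 to 0.0861 for Junb, -0.334 to 0.12 for Jund and -0.303 to 0.73 for Nr4a1. Averaged over both ages it ran from -0.308 to 0.182 for Junb, -1.88 to 0.373 for Egr1, -1.54 to 0.0474 for Ier2 and -0.387 to 0.196 for Nr4a1. Adult over e13.5 in KO ran from -4.79 to 0.187 for Fosb, -1.94 to 2.26 for Egr1 and -2.12 to 1.04 for Ier2, and in WT from -0.966 to 0.0188 for Junb and -0.665 to 1.11 for Egr1. The interaction ran from -2.78 to 2.21 for Fosb, -0.128 to 0.707 for Jund, -2.1 to 2.39 for Egr1, -1.12 to 0.279 for Atf3, -1.4 to 1.77 for Ier2 and -0.241 to 0.0608 for Myc.

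The number of all genes called between KO and WT depended on the setting. It was 12 at e13.5 and 8 in adults as reported, 87 and 64 without the filter, 30 and 54 with DESeq2, 5 and 2 with only 4 libraries. Averaged over both ages it was 20, and 100 without the filter and 59 with DESeq2. For the interaction it was 0, and 30 without the filter, 7 with DESeq2 and 1 with the nested block. Without one library it ran from 6 to 35 at e13.5 and from 0 to 19 in adults. Between ages it was 6883 in KO and 6463 in WT, and 10120 and 9769 with the nested block. The cause of these differences was not tested. Where a left-out library leaves 1 in a group, that library is assumed to vary like the other groups. At 2 libraries a group, the standard errors between KO and WT of 0.38 to 1.16 on the log2 scale limit what can be told apart. Depth bears most on the lowest values, Myc in adults and Jund and Cebpb at e13.5.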
